A study of Mus musculus with 10 samples.

Results

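The genes described here are those that encode the proteins of the cytosolic ribosome. They were taken from the table by symbol (*Rpl* or *Rps* followed by a number, with the usual suffixes, and *Rplp0*, *Rplp1*, *Rplp2* and *Rpsa*), and symbols marked as pseudogenes with -ps were left out. This gave 87 of the 20974 genes in the table, 35 of the small subunit and 52 of the large subunit. The symbol rule also took in 3 genes that GENCODE annotates as processed pseudogenes (*Rps4l*, *Rps3a2* and *Rps3a3*). Of the 87 genes, 86 passed the filter on low values, a mean of 15 or more in either genotype. The exception was *Rpl3l*, a heart and skeletal muscle paralogue of *Rpl3*, at 1.04 to 4.24 normalized counts in mutants and 0.942 to 5.02 in wild types.

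Transcriptomes had been made from single whole mouse embryos at E7.5, from the offspring of *Rreb1*+/- intercrosses. There were 5 *Rreb1*-/- embryos and 5 *Rreb1*+/+ embryos, numbered 2 to 6 in each genotype, each with its own library of polyadenylated RNA. The strain is labelled CD1, and the methods describe a mixed background of CD-1, 129 Sv and C57BL6/C2J. The mutant alleles were made by CRISPR-Cas9 deletion of most of the coding part of exon 6, in lines with a larger and a smaller deletion that were combined, and the labels do not say which line an embryo came from. In both genotypes the parietal endoderm had been taken off for genotyping, so the RNA is that of the rest of the embryo. The values, called normalized counts here, are reads per gene that were scaled between embryos with DESeq.

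The ribosome joins a small subunit, which reads the mRNA, to a large subunit, which forms the peptide bond. Each subunit carries its proteins in fixed numbers, the acidic stalk proteins being present in more than 1 copy, and their genes are among the most highly expressed of growing cells. Their mRNAs are known to begin with a tract of pyrimidines just after the cap (the 5′ TOP tract), through which translation is controlled by mTOR. Loss of 1 copy of many of these genes is known to cause Diamond-Blackfan anemia in people and to activate p53, through the binding of MDM2 by RPL5 and RPL11 that are not built into ribosomes.

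Coding sequences of GC-rich and GC-poor members are shown first, because part of the differences between embryos in this family moved with GC content. Not every gene with a wide spread followed it. The lines give the first 90 coding bases from GENCODE M21 (GRCm38), with G and C in capitals. *Rpl36* (chr17:56613416-56614243) and *Rplp1* (chr9:61913284-61914542) have 60.8% and 57.3% GC over the whole transcript. *Rpl5*, of the large subunit, has 42.7%, and *Rps24*, of the small subunit, has 46.0%.
Rpl36: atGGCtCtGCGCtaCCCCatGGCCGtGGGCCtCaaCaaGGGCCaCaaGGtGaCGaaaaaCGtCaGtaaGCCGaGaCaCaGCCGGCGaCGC
Rplp1: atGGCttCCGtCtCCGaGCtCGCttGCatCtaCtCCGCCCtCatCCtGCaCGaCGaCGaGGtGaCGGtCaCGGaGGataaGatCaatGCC
Rpl5: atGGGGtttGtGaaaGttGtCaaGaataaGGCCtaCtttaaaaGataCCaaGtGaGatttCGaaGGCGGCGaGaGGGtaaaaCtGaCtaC
Rps24: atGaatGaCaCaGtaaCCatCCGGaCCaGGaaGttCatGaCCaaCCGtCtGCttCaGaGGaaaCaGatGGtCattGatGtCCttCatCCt

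The pyrimidine tract known from these genes, which the symbol rule did not use, was looked for on the sense strand around the RefSeq start sites (GRCm38.p6). It was taken as a C followed by at least 4 bases that are C or T, beginning within 5 bases of the start site. Of the 64 genes with an entry, 29 (45.3%) had such a tract, against 5718 of all 27025 entries (21.2%). Among the genes tested here that are not members, 2617 of 10959 with an entry had it (23.9%). Most of the 64 genes thus had no tract by this definition, which depends on the annotated start site and on the width of the window. The lines show 40 bases before and 20 after the start site on the sense strand, with the tract in capitals, for 3 genes that have it and for *Rpl5*, where no such tract began within 5 bases of the start site, although a run of pyrimidines lies further upstream in the line. *Rplp2* lies on the plus strand (chr7:141447611-141447670), *Rps27* on the minus strand (chr3:90213629-90213688), *Rpl22l1* on the plus strand (chr3:28805468-28805527) and *Rpl5* on the plus strand (chr5:107900488-107900547).
Rplp2: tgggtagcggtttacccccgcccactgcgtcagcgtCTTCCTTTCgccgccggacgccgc
Rps27: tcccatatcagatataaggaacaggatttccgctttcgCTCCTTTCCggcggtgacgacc
Rpl22l1: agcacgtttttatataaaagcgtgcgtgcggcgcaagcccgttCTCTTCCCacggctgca
Rpl5: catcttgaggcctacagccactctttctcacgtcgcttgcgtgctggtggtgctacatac

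Several facts of the whole series bear on what follows. Reads counted in genes came to 31467767 to 35446574 in the mutants and 33317560 to 35786876 in the wild types. *Rreb1* itself had 3988 to 5715 normalized counts in the mutants and 2365 to 2924 in the wild types (log2 fold change 0.91, limma, adjusted p = 0.000482). These counts cover the whole gene and not only the deleted part, so they do not check the allele. Y-linked genes summed to 5849 to 9171 in mutant replicates 3 to 6, to 2.12 in mutant replicate 2 and to 0 to 3.82 in the wild types. Mutant replicate 2 is therefore the only mutant embryo with almost no Y-linked reads, and genotype can be told apart from sex only through it. Over all genes, replicates 5 and 6 of both genotypes stood apart from replicates 2 to 4. All 8 epiblast and all 8 mesoderm markers listed were measured and 0 of them were called, while 2 of 10 visceral endoderm markers were lower (*Afp* and *Apoa4*), 1 of 8 extraembryonic ectoderm markers (*Esx1*) was lower and 1 of 8 parietal endoderm markers (*Plat*) was higher in the mutants. Of all genes tested, limma called 3.11% higher and 1.15% lower. Of 8 primitive blood markers 0 were called, but all 8 had a log2 fold change below 0, with a median of −1.63. In a fit that blocks on replicate number, 4 of them were lower, beside 2.28% of all genes. They took 0.00112% to 0.00968% of the counts in the mutants and 0.00326% to 0.0373% in the wild types, which overlap. The 8 parietal endoderm markers took 0.304% and 0.345% of the counts in mutant replicates 2 and 6, against 0.155% to 0.169% in the other mutants and 0.162% to 0.208% in the wild types. What these markers have to do with the ribosomal protein genes was not tested.

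The first question was whether ribosomal protein mRNA took a different share of the transcriptome in embryos without *Rreb1*. The 87 genes took 4.69%, 5.34%, 4.91%, 4.69% and 5.31% of all counts in mutant replicates 2 to 6. In wild-type replicates 2 to 6 they took 4.79%, 4.62%, 5.12%, 4.40% and 5.06%. The genotypes overlapped: mutants 3 and 6 were above every wild type, while mutants 2 and 5 were below wild types 2, 4 and 6. The means were 4.99% ± 0.320 in mutants and 4.80% ± 0.301 in wild types (SD, n = 5 embryos each), so the difference of 0.190 percentage points was smaller than either SD. In replicates 2 to 4 alone the difference was 0.133 points and in replicates 5 and 6 alone it was 0.275 points. In whole embryos, fewer cells of a type and less RNA per cell cannot be told apart.

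**Figure D1:**
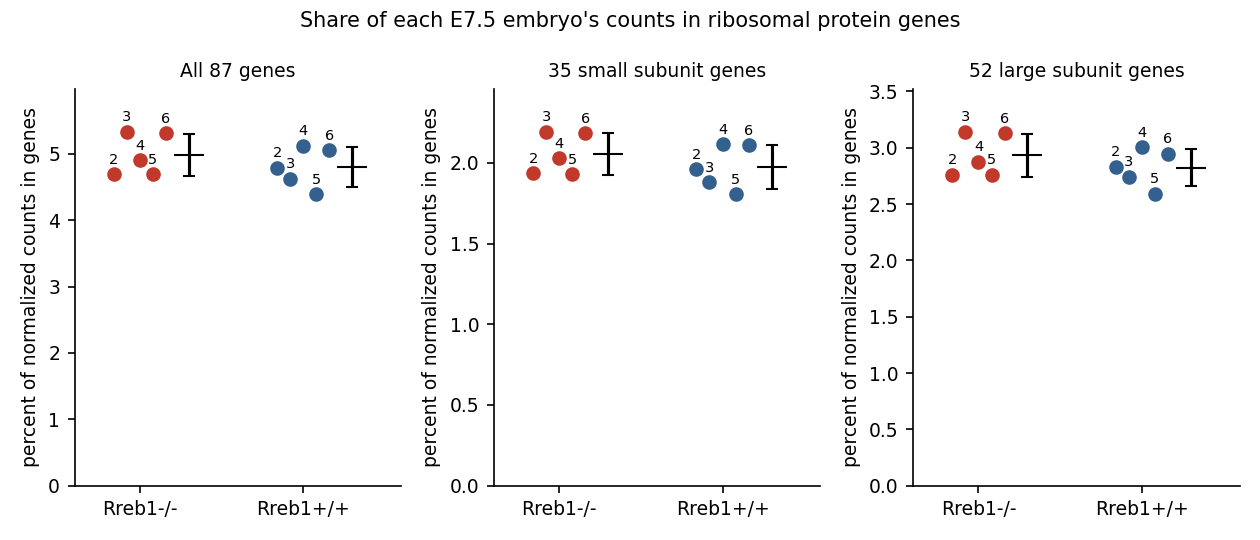
Percent of each embryo's normalized counts in all 87 ribosomal protein genes (left), the 35 of the small subunit (middle) and the 52 of the large subunit (right), with 1 numbered point per embryo and the mean ± SD of 5 embryos beside each genotype. *Rreb1*-/- and *Rreb1*+/+ embryos overlap in all 3 panels, with mutants 3 and 6 the highest and wild type 5 the lowest.

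Both subunits gave the same picture. Genes of the small subunit took 2.06% ± 0.129 in mutants and 1.97% ± 0.137 in wild types, and those of the large subunit 2.93% ± 0.191 in mutants and 2.82% ± 0.166 in wild types. The 3 stalk genes took 0.219% to 0.395% in mutants and 0.248% to 0.375% in wild types, and the 10 listed paralogues 0.0763% to 0.0918% in mutants and 0.0746% to 0.0872% in wild types. The 109 rows marked as ribosomal protein pseudogenes, which are outside the family as defined here, held 0.0227% to 0.0318% in mutants and 0.0220% to 0.0340% in wild types. The 81 nuclear genes of the mitochondrial ribosome, a separate machine, took 0.403% ± 0.0120 in mutants and 0.404% ± 0.0195 in wild types.

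Levels within the family were compared per kilobase of coding sequence, since longer mRNAs give more reads. On this scale the highest were *Rpl41*, whose protein is the smallest of the ribosome, at 418411 normalized counts per coding kb, and *Rplp1* at 81618. The value of *Rpl41* is inflated by its coding sequence of only 75 bases, since reads from the rest of its transcript are counted too. *Rpl4*, chosen after its values were seen, had the most counts of any member, at 91091 ± 3802 in mutants and 90274 ± 2272 in wild types, and stood at 72142 per coding kb. The lowest were *Rpl3l* (2.36) and *Rpl10l* (34.0), a paralogue of *Rpl10* used in the testis. Among genes of the ordinary ribosome *Rpl24* was far below the rest at 4129 per coding kb, and 81.7% of the 50-base stretches of its transcript also occur in other annotated genes. Reads were 50 bases long and were sequenced in pairs. Over the family a median of 53.3% of single 50-base stretches were shared (0% to 98.6%), more than 50% of them in 47 of the 87 genes. The share of read pairs that match other genes too was not measured. How the authors' counting assigned reads that match a gene and its copies is not given in the sources used here. The levels are therefore uncertain to an extent that is not known. For 24 members a gene is annotated on the other strand as well, and whether the counting used strand is likewise not given.

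The second question was whether single ribosomal protein genes differed between the genotypes. At an adjusted p under 0.05, limma called 0 of the 86 tested genes higher and 0 lower in mutants, against 3.11% and 1.15% of all 15603 genes tested. On the recovered reads edgeR also called 0 in each direction, against 3.24% of all genes higher and 1.08% lower, and so did DESeq2, against 5.24% higher and 2.86% lower. Before adjustment, 4 of the 86 were higher with a p under 0.05 and 0 were lower, against 9.74% and 8.21% of all genes tested. The values of the genotypes overlapped for all 87 members, while over all genes tested they did not overlap for 6.70%. With the replicate number as a block, 1 member (*Rps27l*) was called higher and 0 lower, against 4.59% and 2.28% of all genes in that fit.

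The median log2 fold change was 0.047 over the 86 genes (0.055 for the small subunit and 0.046 for the large), and −0.016 over all genes tested. Of the members, 64 had a value above 0 and 22 below 0. When Y-linked counts entered the fit as a covariate, the median of the members was −0.031. In the fit without this covariate, the intervals were narrow for most of the family. For 54 of the 86 genes the 95% interval of the difference lay within 1.25-fold in either direction and for 74 within 1.5-fold, and the median half-width was 0.19 on the log2 scale. For 62 genes the estimate was within 0.1 of the family median.

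**Figure D2:**
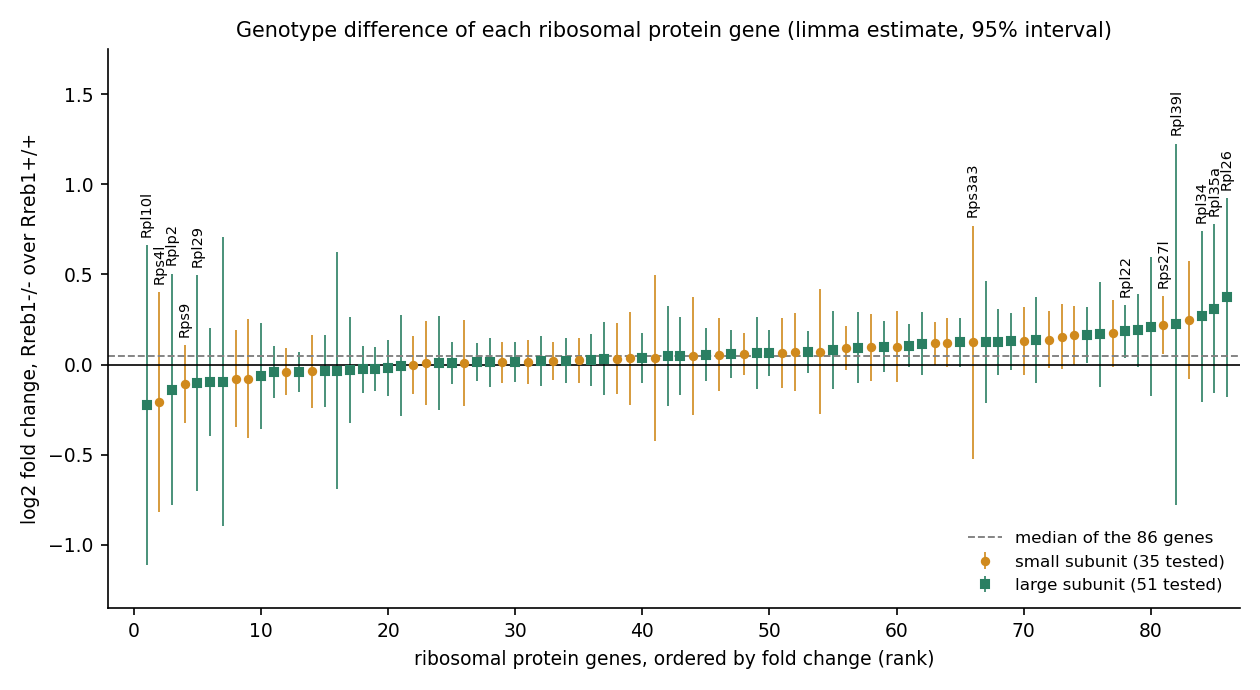
Log2 fold change (*Rreb1*-/- over *Rreb1*+/+) of the 86 ribosomal protein genes tested, ordered by size along the x axis, with limma's unadjusted 95% intervals. Small subunit genes are circles and large subunit genes squares, and the dashed line is the family median of 0.047. The estimates run from −0.23 (*Rpl10l*) to 0.37 (*Rpl26*), and most wide intervals belong to low genes or to genes that differed between embryos of 1 genotype.

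*Rps27l* had the lowest p of the family. It is a paralogue of *Rps27*, the source of a zinc-finger protein of the small subunit, and a known direct target of p53, and it lies on chromosome 9 (chr9:66946086-66949516, GRCm38). Its normalized counts were 6861, 6717, 6383, 5632 and 6707 in mutant replicates 2 to 6, against 6235, 5176, 5367, 5164 and 5775 in wild-type replicates 2 to 6. In 4 of the 5 mutants it was above every wild type, and mutant 5 lay between the wild types. The means were 6460 ± 495 in mutants and 5543 ± 459 in wild types (SD, n = 5 each), which is 0.22 on the log2 scale (SE 0.073, adjusted p = 0.132 in limma). With the replicate block the same fold change had an adjusted p of 0.0488, in edgeR with that block 0.0455, and in edgeR and DESeq2 without it 0.132 and 0.0596. After the part of each embryo's values that followed GC content and transcript length had been taken out, the log2 fold change was 0.13 (limma, adjusted p = 0.249, and 0.177 with the block as well).

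The other p53 targets are given beside it, since *Rps27l* is one. Of the 15 listed targets tested, none of them in the family, 4 were higher and 0 lower in mutants, beside 3.11% and 1.15% of all genes tested, with a median log2 fold change of 0.29. *Trp53inp1*, which promotes p53-dependent death and autophagy, had 2062 ± 383 normalized counts in mutants and 976 ± 136 in wild types (log2 fold change 1.07, limma, adjusted p = 0.00122). *Ccng1*, a cyclin-like p53 target, had 3314 ± 459 in mutants and 2027 ± 226 in wild types (0.71, adjusted p = 0.00304 in limma). The receptor *Eda2r* had 215 ± 48.1 in mutants and 73.7 ± 36.5 in wild types (1.65, adjusted p = 0.0140 in limma). Some well-known targets, named here after their values were seen, gave another picture. *Cdkn1a*, the source of the cell cycle inhibitor p21, had 357 ± 91.4 in mutants and 487 ± 83.3 in wild types (−0.47, adjusted p = 0.222 in limma and 0.0306 before adjustment). The log2 fold changes of *Mdm2*, whose protein degrades p53, of *Aen* and of *Plk2* were 0.047, 0.021 and −0.033, and limma called none of them. The 15 genes together took 0.0636% to 0.0811% of the counts in mutants and 0.0512% to 0.0537% in wild types, without overlap.

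The other members with an unadjusted p under 0.05 were *Rpl22*, *Rpl31* and *Rps23*. *Rpl22* encodes an RNA-binding protein of the large subunit, which in the mouse holds down its own paralogue *Rpl22l1*, and lies on chromosome 4 (chr4:152325742-152334071). It had 21325, 18248, 19456, 17325 and 20308 normalized counts in mutant replicates 2 to 6 and 18836, 16307, 16690, 16583 and 16498 in wild-type replicates 2 to 6. All 5 mutants were above wild types 3 to 6, and wild type 2 stood apart from the other wild types, above 2 of the mutants. The difference was 0.19 on the log2 scale (SE 0.067, adjusted p = 0.169 in limma). *Rpl22l1* had 6165 ± 1147 in mutants and 5448 ± 734 in wild types (0.17, adjusted p = 0.556 in limma), on the same side as *Rpl22*. *Rpl31* and *Rps23*, whose names were chosen after their values were seen, had log2 fold changes of 0.16 and 0.12 (limma, adjusted p = 0.258 and 0.277).

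The members furthest from the family median were, above it, *Rpl26*, *Rpl35a*, *Rpl34*, *Rps3a2* and *Rpl39l*, and below it *Rpl10l*, *Rps4l*, *Rplp2*, *Rps9* and *Rpl29*. For each of these 10 the 95% interval of the log2 fold change included 0. *Rpl26*, whose protein sits beside the exit of the peptide tunnel, had 15046, 9779, 9617, 8572 and 10506 normalized counts in mutant replicates 2 to 6. In wild-type replicates 2 to 6 it had 9390, 8047, 13169, 8102 and 4343. Mutant 2 was the highest of all 10 embryos and wild type 6 the lowest, and the other mutants lay among the wild types. The log2 fold change was 0.37 (95% interval −0.18 to 0.92, limma, adjusted p = 0.474), and 0.15 to 0.55 when each embryo was left out in turn.

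*Rpl35a*, one of the genes of Diamond-Blackfan anemia, had 11526 in mutant 2 and 5222 to 7802 in the other mutants, and 4502 to 7955 in the wild types (log2 fold change 0.31, adjusted p = 0.488 in limma). *Rpl34* had 6352 to 11522 in mutants and 5061 to 10842 in wild types (0.27, adjusted p = 0.560 in limma). *Rpl29*, whose protein is also known to bind heparan sulfate, had 6065, 7688, 6744, 3830 and 4235 in mutant replicates 2 to 6 and 10101, 6925, 4065, 6516 and 3936 in wild-type replicates 2 to 6. Its values fell apart within each genotype, with wild type 2 more than 2 times as high as wild types 4 and 6. The log2 fold change of *Rpl29* was −0.10 (95% interval −0.70 to 0.50, limma, adjusted p = 0.884). *Rps9*, of the small subunit, had 30190 ± 4002 in mutants and 32458 ± 3492 in wild types (−0.11, adjusted p = 0.614 in limma). The remaining far members, apart from *Rplp2*, are annotated as pseudogenes or had few counts. *Rps4l* had 3026 ± 1217 in mutants and 3409 ± 1037 in wild types, and *Rps3a2* had 146 ± 22.8 in mutants and 123 ± 17.3 in wild types. The paralogue *Rpl39l*, known from the testis, had 53.9 ± 27.6 in mutants and 41.6 ± 15.2 in wild types, and *Rpl10l* had 19.4 ± 8.13 in mutants and 24.2 ± 13.9 in wild types.

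**Figure D3:**
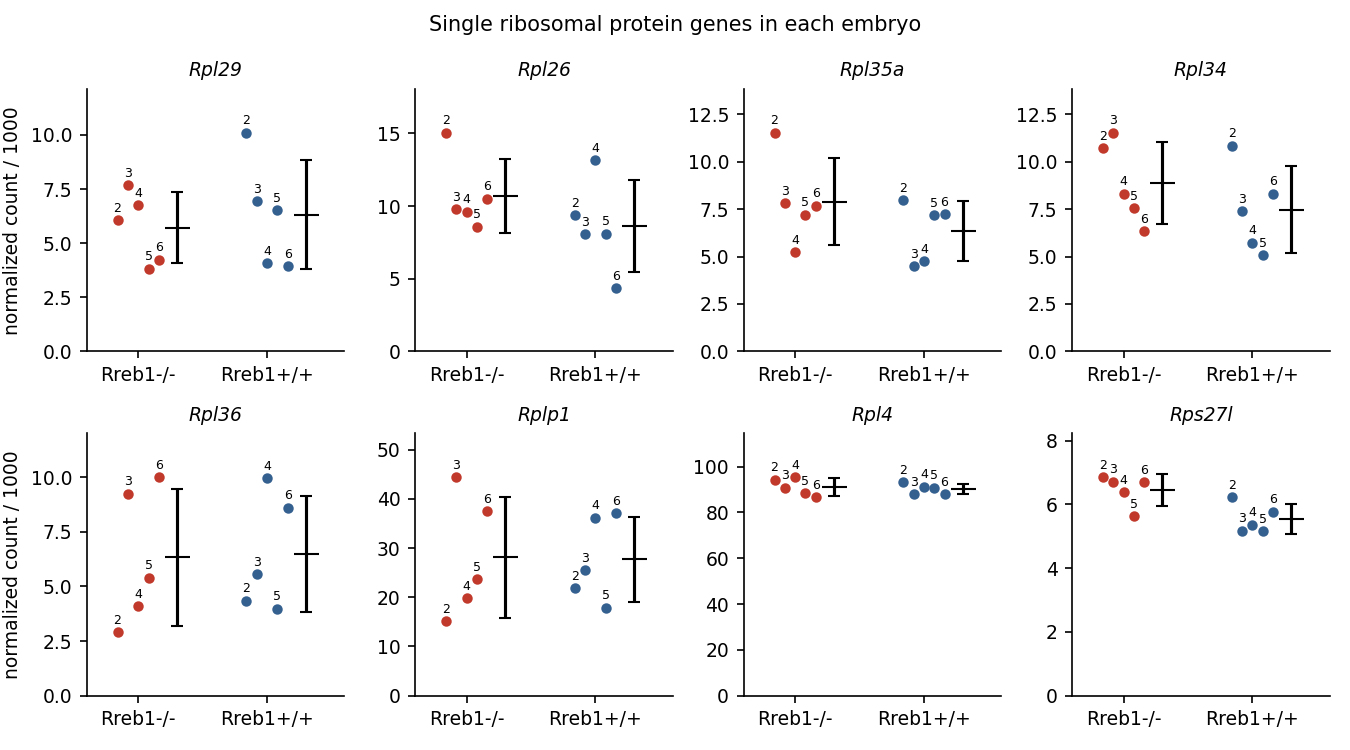
Normalized counts, divided by 1000, of 8 ribosomal protein genes in each embryo, with *Rreb1*-/- left of *Rreb1*+/+ in every panel, 1 numbered point per embryo and the mean ± SD of 5 embryos beside it. *Rpl29*, *Rpl26*, *Rpl35a*, *Rpl34*, *Rpl36* and *Rplp1* differ between embryos of the same genotype by up to 3.46 times, *Rpl4* by 1.10 times over all 10 embryos, and *Rps27l* is above all wild types in 4 of 5 mutants.

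The genes of the stalk, which recruits the elongation factors to the large subunit, were not called. *Rplp0*, the base of the stalk, had 62961 ± 7909 normalized counts in mutants and 64304 ± 5224 in wild types (log2 fold change −0.036, adjusted p = 0.879 in limma). *Rplp1* had 15192, 44439, 19818, 23724 and 37459 in mutant replicates 2 to 6 and 21850, 25507, 36150, 17864 and 37129 in wild-type replicates 2 to 6. *Rplp2* had 6822, 16167, 8905, 11987 and 16432 in mutant replicates 2 to 6 and 9517, 12899, 19340, 7942 and 16587 in wild-type replicates 2 to 6. Both were high in mutants 3 and 6 and in wild types 4 and 6, and low in mutants 2 and 4 and in wild types 2 and 5. The log2 fold changes were −0.034 and −0.14 (limma, adjusted p = 0.968 and 0.850).

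Of the 4 X-linked members, 0 were called. *Rps4x*, a small subunit protein gene, had 49059 in mutant 2, the mutant with almost no Y-linked reads, 34391 to 40005 in the other mutants and 35907 to 43150 in the wild types. *Rpl10*, whose protein is among the last to join the large subunit, had 24323 ± 1467 in mutants and 24137 ± 886 in wild types (log2 fold change 0.010, 95% interval −0.11 to 0.13, limma). *Rpl36a* had 12137 ± 1069 in mutants and 11088 ± 761 in wild types (0.13, limma, adjusted p = 0.376). *Rpl39*, whose small protein lines the exit tunnel, had 5758 ± 727 in mutants and 5026 ± 390 in wild types (0.19, adjusted p = 0.311 in limma).

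Of the 10 listed paralogues 9 were tested and 0 called. *Rpl7l1* had 8146 ± 586 normalized counts in mutants and 8030 ± 474 in wild types, and *Rpl36al* 4765 ± 332 in mutants and 4846 ± 200 in wild types. *Rps3a3*, annotated as a processed pseudogene, had 17.1 ± 3.47 in mutants and 16.3 ± 5.81 in wild types. The genes best known from disease and mouse mutants did not pass the test either. Of the 18 listed, 16 had a log2 fold change above 0, with a median of 0.088. Of all 86 members tested, 64 were above 0, with a median of 0.047. *Rps19*, the gene most often affected in Diamond-Blackfan anemia, had 16068 ± 1314 in mutants and 14453 ± 1505 in wild types (0.16, adjusted p = 0.353 in limma). *Rpl5* and *Rpl11*, which bind the 5S rRNA together, had log2 fold changes of 0.12 and 0.021. *Rpl38*, mutated in Tail-short mice, had 7052 ± 999 in mutants and 6628 ± 482 in wild types (0.080). *Rpl24*, mutated in Belly spot and tail mice, had 2016 ± 69.8 in mutants and 1874 ± 93.3 in wild types (0.11, adjusted p = 0.346 in limma).

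The larger differences in the family were between embryos of the same genotype. In the 82 members with a mean of at least 1000, the median SD within genotypes was 0.145 on the log2 scale, against 0.133 in all 6445 genes with such a mean. Over all 10 embryos of both genotypes, the highest embryo exceeded the lowest by a median of 1.35 times. In 10 members it did so by more than 2 times and in 26 by less than 1.25 times. *Rpl4*, of the large subunit (1.10 times), and *Rps6*, the small subunit protein phosphorylated by S6 kinase, were among the steadiest, with SDs of 0.050 and 0.059. *Rpl36* and *Rpl26* had the widest ranges over both genotypes, 3.46 times each. For *Rpl36* the highest and the lowest embryo were both mutants, while for *Rpl26* the highest was a mutant and the lowest a wild type. The SD of 9 members was above the 95th percentile of other genes with a mean of at least 1000, and that of 37 was below their median. The steady and the variable genes described here were chosen after their values were seen.

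**Figure D4:**
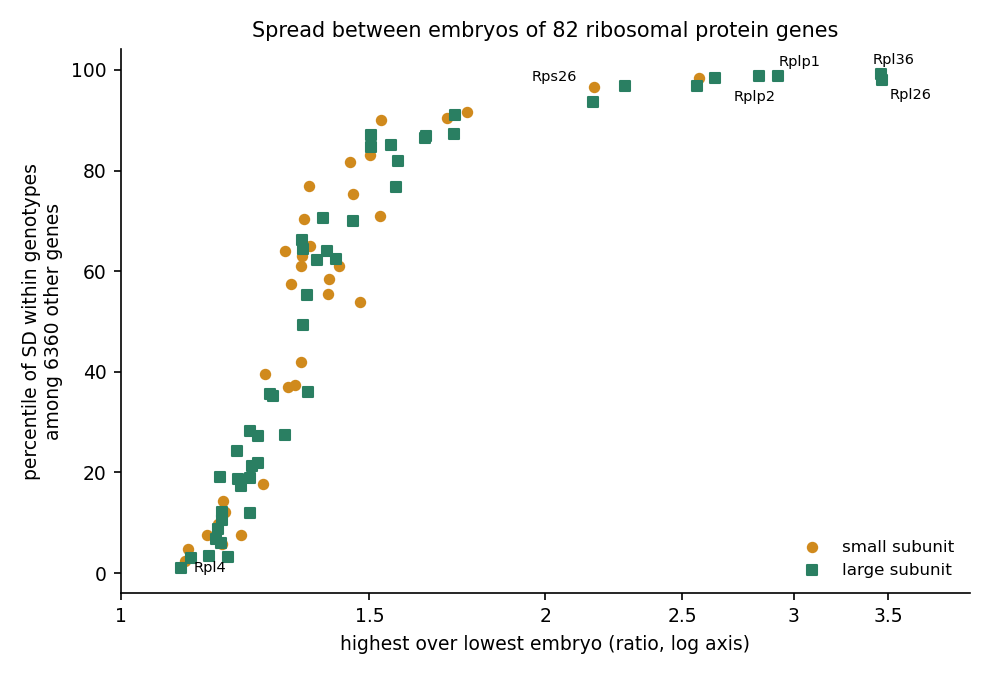
Spread of the 82 ribosomal protein genes with a mean of at least 1000, as the ratio of the highest to the lowest of the 10 embryos (x axis, log scale) and as the percentile of the SD within genotypes among 6360 other genes of such a mean (y axis). *Rpl36*, *Rplp1*, *Rplp2*, *Rps26* and *Rpl26* lie at the upper right, above the 95th percentile, and *Rpl4* at the lower left.

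One pattern took most of this variation. In a singular value decomposition of the log2 deviations of the 82 genes, the first axis took 60.3% of the variance and the second 18.6%. The deviations were not scaled per gene, so the genes with the widest spread weigh most in these shares. Embryo scores on the first axis were 1.63 and 1.61 in mutants 3 and 6, −2.43 and −1.14 in mutants 2 and 4 and −0.18 in mutant 5. They were 1.72 and 1.53 in wild types 4 and 6, −1.45 and −0.99 in wild types 5 and 2 and −0.29 in wild type 3. High and low embryos were thus found in both genotypes. The genes that followed the axis most were *Rpl36*, *Rplp1*, *Rplp2*, *Rps4l* and *Rps26*. *Rpl36*, of the large subunit, had 2894, 9246, 4106, 5397 and 10008 normalized counts in mutant replicates 2 to 6 and 4346, 5561, 9955, 3979 and 8605 in wild-type replicates 2 to 6. *Rps26*, of the small subunit, had 11962 to 25897 in mutants and 13704 to 21791 in wild types. Of the 82 genes, 55 moved in this direction and 27, led by *Rpl29*, *Rpl26* and *Rpl35a*, in the other.

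The axis moved with GC content. Across the 82 genes (which share the same 10 libraries and are not independent) the loading had a Pearson correlation of 0.54 and a Spearman correlation of 0.58 with the GC content of the transcript, and of −0.17 and −0.16 with its length. Without the 5 genes with the highest loadings the correlation with GC was 0.46 (Spearman 0.54). Other genes were tilted by GC as well: over 6360 genes outside the family, 10 points of GC went with −0.28 on the log2 scale in mutant 2, 0.10 in mutant 3, −0.20 in mutant 4, 0.060 in mutant 5 and 0.046 in mutant 6. In wild types 2 to 6 the slopes were −0.11, 0.079, 0.21, −0.028 and 0.12. The slopes within the family had the same sign as these in each of the 10 embryos, from −0.43 in mutant 2 to 0.24 in wild type 4. The slope in other genes did not follow the score on the axis in every embryo. Their signs were opposite in mutant 5 (score −0.18) and wild type 3 (score −0.29), and mutant 6 had a score of 1.61 with a slope of only 0.046.

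When the curve on GC and length seen in the other genes was taken out of the 82, 71.8% of their sum of squares was left and their median SD was 0.106, against 0.145 before, while that of the 6360 other genes was 0.101, against 0.133 before. The SD of *Rpl36* was then 0.40, against 0.68 before, and that of *Rplp1* 0.39, against 0.56. *Rpl29*, *Rpl26* and *Rpl34* did not become steadier: their SDs were 0.62, 0.50 and 0.44 after the correction and 0.51, 0.46 and 0.40 before it. The first axis still took 49.6% of the variance that was left. What else moved with it was not tested.

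**Figure D5:**
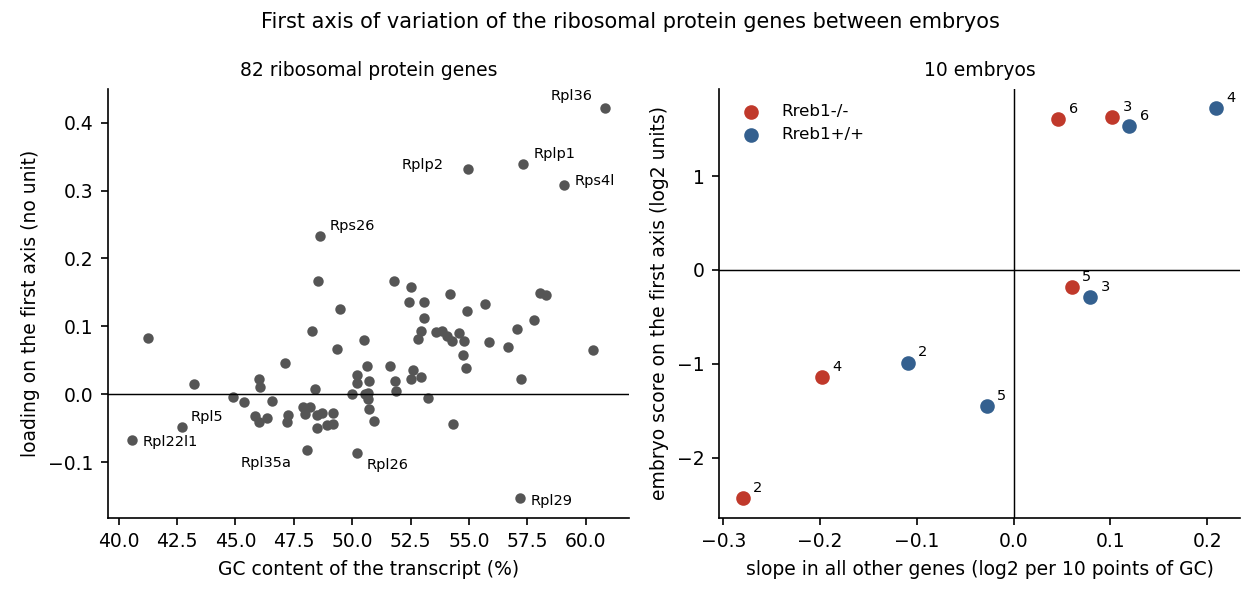
Left, the loading of each of 82 ribosomal protein genes on the first axis of variation (no unit) against the GC content of its transcript in percent. Right, the score of each embryo on that axis (log2 units) against the slope on GC content in 6360 other genes (log2 per 10 points of GC), numbered by replicate, *Rreb1*-/- and *Rreb1*+/+ in different colours. *Rpl36*, *Rplp1*, *Rplp2* and *Rps4l* have the highest loadings, at 55.0% to 60.8% GC. Other GC-rich genes do not stand high, such as *Rps10* (60.3% GC, loading 0.065), and *Rpl29*, at 57.2%, has the lowest loading. *Rps26* stands high (0.23) at 48.6% GC. Mutant 2 is the lowest embryo on both measures.

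Most members varied together from embryo to embryo. Here only the genotype means were removed, and the part that followed GC content and length was left in. The correlation of each of the 82 genes with the mean of the others over the 10 embryos had a median of 0.72. No value for other genes is set beside it, so it is not shown to be particular to the family. It was above 0.5 for 51 genes and below 0 for 7. The 7 were *Rpl9*, *Rpl4*, *Rpl29*, *Rpl35a*, *Rpl26*, *Rpl5* and *Rps4x*, named after their values were seen. Of these, *Rpl29* had 57.2% GC and the others 42.7% to 50.2%. *Rpl4* had the smallest spread of the 82, which leaves little variation to correlate, and *Rpl29* one of the largest.

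Genes that make or regulate ribosomes were compared in the same fit. Of 40 listed genes of ribosome biogenesis (rRNA transcription, processing and assembly), 0 were called by limma, with a median log2 fold change of −0.12. Before adjustment 1 was higher and 10 were lower in mutants with a p under 0.05, beside 9.74% and 8.21% of all genes tested. With the replicate block 0 were called higher and 3 lower, beside 4.59% and 2.28% of all genes. They took 1.15% ± 0.0616 of the counts in mutants and 1.20% ± 0.0299 in wild types. Of 12 listed Myc and mTOR regulators 0 were called, with a median of −0.058, and with the block 0 were higher and 2 lower. Of 18 other genes listed as TOP mRNAs, such as translation factors, 0 were called, with a median of 0.021. Of the 12 with a RefSeq entry, 5 (41.7%) had the tract as defined above. The 18 took 2.51% ± 0.115 in mutants and 2.49% ± 0.0516 in wild types. Of the 79 genes of the mitochondrial ribosome tested, 0 were higher and 1 lower in mutants, beside 3.11% and 1.15% of all genes tested, with a median of −0.021.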

How the data were processed

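RNA-sequencing of 5 *Rreb1*-/- and 5 *Rreb1*+/+ single embryos at E7.5 was analysed. The authors aligned the reads with STAR, processed them with Picard, counted them per gene with HTSeq and scaled them with DESeq. The deposited values are therefore a linear signal, namely reads per gene over the size factor of the embryo. Build and gene models: not given in the sources used here. Whole reads (within 0.1 read, 100% of values) were recovered for edgeR 4.0.16 and DESeq2 1.42.0 only. Depth was 31467767 to 35786876 reads in genes per embryo.

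Log2(value + 1) was compared with limma 3.58.1 (trend) in R 4.3.3 over the 15603 genes whose mean reached 15 in either genotype, adjusted by Benjamini-Hochberg over all of them. Fold changes on this scale understate those of low genes. P-values in limma measure the spread between single embryos. GENCODE M21 (GRCm38) was matched by gene identifier for all 87 members and gave positions, lengths and GC content, from the principal transcript of each gene. Some of these transcripts are far longer than their coding part (*Rps15a*, 5179 bases with 390 coding). Their GC content is then mostly that of bases outside it. RefSeq gave start sites for 64 members. GC content and length were taken out as natural splines (4 degrees of freedom each) per embryo, a choice made after the data were seen, as were edgeR with the replicate block and the axis of variation. The scripts were tested on simulated data.

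The members and lists were chosen with earlier results of these data known. Named genes were called members, the 5 furthest above and below the family median, the X-linked, stalk and paralogue lists, *Rps19*, *Rpl5*, *Rpl11*, *Rpl38*, *Rpl24* and *Rpl22*, the 2 highest and 2 lowest per coding kb, *Rreb1* and up to 3 called genes of each other list. Embryos of equal number correlated at 0.253 to 0.459 over all genes (5 pairs), so the number was also fitted as a block, although no more than 3 of 10 embryos were closest to their own number. Other alternatives were TMM factors, size factors without the members, pseudocounts of 0.5 and 5, no filter and a mean of at least 50, an adjusted p under 0.01, a Y-linked covariate, replicates 2 to 4 and 5 and 6 alone, each embryo left out, and no paralogues.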

Additional observations from a re-analysis of the deposited data

Results flagged for a closer look

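Of the 58 groups of 5 embryos examined, 1 held a value far from the other 4, where chance gives about 1 in 20. *Rpl22* had 18836 normalized counts in wild-type replicate 2, against 16307 to 16690 in the other wild types, and the gap to the nearest of them was 0.849 of the whole range. Without that embryo the log2 fold change of *Rpl22* was 0.22, against 0.19 with it.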

How the results depend on the processing

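The count of members called was 0 in both directions in limma and under the alternatives run, except that *Rps27l* was called higher with the replicate block (1 gene in limma and 1 in edgeR, log2 fold change 0.22 in each). The block changed no other call of a member. Without each embryo in turn both counts remained 0, the family median ran from 0.018 to 0.083 and the difference in share from 0.0895 to 0.271 points. Of the 86 members tested, the sign turned for 25 with the Y-linked covariate, 16 with GC content and length taken out, 12 in replicates 2 to 4 alone, 26 in replicates 5 and 6 alone and 5 to 17 without 1 embryo, 0 of them called. Values follow for those among the 28 genes named by rule. *Rplp1* had 0.025 in edgeR and 0.023 in DESeq2. With the Y-linked covariate *Rpl29* had 0.076, *Rpl38* −0.27, *Rpl41* −0.23 and *Rps3a3* −0.11. Some members kept their sign but moved far with that covariate, and those given here were chosen after their values were seen. *Rpl36* had −1.09, against −0.095 without the covariate, *Rplp2* −0.88, against −0.14, and *Rpl35a* 0.95, against 0.31. In replicates 2 to 4 alone *Rpl29* had 0.048, *Rpl36al* 0.0044, *Rpl41* −0.043 and *Rps3a3* −0.032. In replicates 5 and 6 alone *Rpl10* had −0.058, *Rpl10l* 0.27, *Rpl39l* −0.13, *Rpl7l1* −0.060, *Rplp0* 0.039, *Rplp1* 0.21, *Rplp2* 0.29, *Rps4l* 0.014 and *Rps4x* −0.080. With GC content and length taken out, with or without the block, *Rpl10* had −0.037 and *Rps4x* −0.027. Leaving out 1 embryo gave ranges of −0.014 to 0.042 for *Rpl10*, −0.41 to 0.010 for *Rpl10l*, −0.0069 to 0.053 for *Rpl11*, −0.25 to 0.089 for *Rpl29*, −0.053 to 0.0070 for *Rpl36al*, −0.032 to 0.11 for *Rpl41*, −0.013 to 0.053 for *Rpl7l1*, −0.090 to 0.025 for *Rplp0*, −0.23 to 0.16 for *Rplp1*, −0.30 to 0.047 for *Rplp2*, −0.092 to 0.26 for *Rps3a3* and −0.043 to 0.086 for *Rps4x*. The cause of these turns and shifts was not tested.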
